A study of Drosophila melanogaster with 6 samples.

Results

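In lists of C-to-T and truncation sites from m6A miCLIP of Drosophila S2R+ cells, 949 of 29142 sites lay outside annotated mRNA parts, introns, repeats and the mitochondrial genome. They were taken as the sites on nuclear sequences that the authors gave no mRNA part (5' UTR, start codon, coding sequence, stop codon, 3' UTR or intron) and no repeat name. They comprised 93 of the 6225 C-to-T sites (1.49%) and 856 of the 22917 truncation sites (3.74%). The authors attached a noncoding RNA to 305 of them, under 85 names, and left 644 without any name. The other sites of both lists were 25583 in mRNA exons, 2021 in introns, 377 in repeats and 212 on the mitochondrial genome.

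The study mapped N6-methyladenosine (m6A) by miCLIP in S2R+ cells, a cultured line of haemocyte-like character. Its 6 libraries were 4 replicate IPs with an anti-m6A antibody, 1 non-crosslinked IP with the same antibody and 1 input of fragmented mRNA without antibody. The cells of all 6 were untreated and kept at room temperature in Schneider's medium with serum, and their RNA was selected on oligo(dT) beads. The labels do not say whether the replicates were separate cultures, and the line stands for 1 cell type in culture.

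m6A is placed on nuclear RNA by a methyltransferase complex with the catalytic subunit Mettl3, and it affects splicing, decay and translation through reader proteins. Long noncoding RNAs (lncRNAs), the primary transcripts from which microRNA hairpins are cut, and hairpin RNAs (hpRNAs) that yield small interfering RNAs are also made in the nucleus, many of them by RNA polymerase II. In miCLIP the antibody is crosslinked to RNA fragments, and reverse transcriptase then either misreads the C that follows the methylated A, giving a C-to-T change, or stops at the crosslink, giving a truncation. Where the base just before a C-to-T site was itself listed as a truncation at A, the 2 sites are called a pair here. A listed site is therefore not the same as an m6A: a pair counts 1 A as 2 sites, and many truncations lay at other bases.

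Each site came with 1 value combined by the authors over the 2, 3 or 4 IPs that shared it, so no value has an SD or a replicate count. Sites of 1 RNA share that RNA's abundance and reads, so they were described with 95% intervals that cover counting error only, and no comparison of sites was tested. Tag numbers and conversion percentages are separate means over those IPs, so a percentage need not equal the ratio of the 2 tag numbers beside it. The coverage was known only at C-to-T sites. The site lists were not set against the non-crosslinked IP or the input here.

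The base at truncations of the noncoding and unnamed sites was A at 465 of 856 (54.3%, Wilson interval 51.0% to 57.6%), beside 51.9% over the whole truncation list. T followed with 31.7%, C with 7.71% and G with 6.31%. In mRNA exons the share of A was 52.1%, inside the interval of the noncoding and unnamed sites. The classes spanned a wide range. Exons of lncRNAs had A at 97 of 167 truncations (58.1%, 50.5% to 65.3%) and unnamed sites at 341 of 606 (56.3%, 52.3% to 60.2%). RNAs labelled as pseudogenes had A at 12 of 38 (31.6%, 19.1% to 47.5%), rRNAs at 6 of 18 (33.3%) and tRNAs at 3 of 14 (21.4%). Parts of mRNAs spanned a like range, with A at 72.3% of truncations in 5' UTRs, 37.3% in coding sequence and 43.0% in 3' UTRs.

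Pairs were found at 41 of the 93 C-to-T sites (44.1%, 34.4% to 54.2%), beside 35.1% over the whole C-to-T list. Named RNAs held 23 of them (of 55 C-to-T sites, 41.8%) and unnamed sites 18 (of 38, 47.4%). The interval of the named and unnamed sites together began at 34.43%, just above the value in mRNA exons (34.37%), and ended below that in introns (62.7%). The paired share was 48.8% in 5' UTRs, 6.38% in coding sequence and 24.9% in 3' UTRs. No C-to-T site of the 93 had a truncation at T, G or C on the base directly upstream. The same count over the whole C-to-T list is not given here. Seen from the truncations, 41 of 465 at A (8.82%, 6.57% to 11.7%) belonged to a pair, beside 18.3% over the whole list. That share was 18.5% in named RNAs and 5.28% at unnamed sites, against 19.7% in mRNA exons.

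The 2 RNAs with the most sites contain microRNA hairpins. The lncRNA CR43334 (dm6, 3L:628435-643900, plus strand), which contains the hairpin of bantam, a microRNA that promotes growth and blocks apoptosis, held 43 sites, 18 of them C-to-T and 25 truncations. Its truncations fell at A in 16 cases, at T in 8 and at G in 1, and 6 of its C-to-T sites were paired. Of the 43 sites, 23 lay in the first 1000 nt of the RNA. The sites formed a group near the start of the RNA and a smaller one nearer the hairpin.

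In the group near the start, the pair with the most changed tags was at 628711, where 21.75 of 285 tags (7.78%) carried the change and the truncation at A upstream had a peak height of 65.7. Peak height is the strength that the CTK site caller gives a truncation. The pair at 629008 had 21.25 changed tags of 402 (5.38%) and a truncation peak of 110.25, the highest in CR43334. Another pair there, at 628752, had 10.3 changed tags of 289 (3.53%) and a peak of 29.25. Unpaired C-to-T sites in the same group had tag numbers in that range, at 629100 with 21.25 changed tags of 433 (5.05%) and at 628950 with 19.8 of 342 (6.03%). The group nearer the hairpin held a pair at 639996, with 11.3 changed tags (2.32%) and a truncation peak of 62.8. All 43 sites lay 5' of the bantam hairpin (3L:642208-642288), the nearest of them by 882 nt, and no site lay inside the hairpin.

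The lncRNA CR43459 (3R:10093761-10101356, plus strand) contains the hairpins of mir-277, a regulator of branched-chain amino acid breakdown, and mir-34, a microRNA linked to ageing of the fly brain. It held 33 sites, 14 of them C-to-T and 19 truncations, of which 10 were at A, 8 at T and 1 at G. Like CR43334 it had most of its sites at its start, with 22 in the first 1000 nt and 5 pairs. The pair at 10094001 had 17 changed tags of 259 (6.50%) beside a truncation peak of 40.5. The pair at 10093889 had a higher truncation peak, 87.7, with 9.67 changed tags (3.16%). A further pair, at 10094274, had 11 changed tags of 158 (6.97%) and a peak of 46.8. Of the 33 sites, 32 lay 5' of the mir-277 hairpin (3R:10100022-10100121), the nearest by 3070 nt. The last one, a truncation at T with a peak height of 21.75, lay inside the mir-34 hairpin (3R:10100936-10101034).

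**Figure D1:**
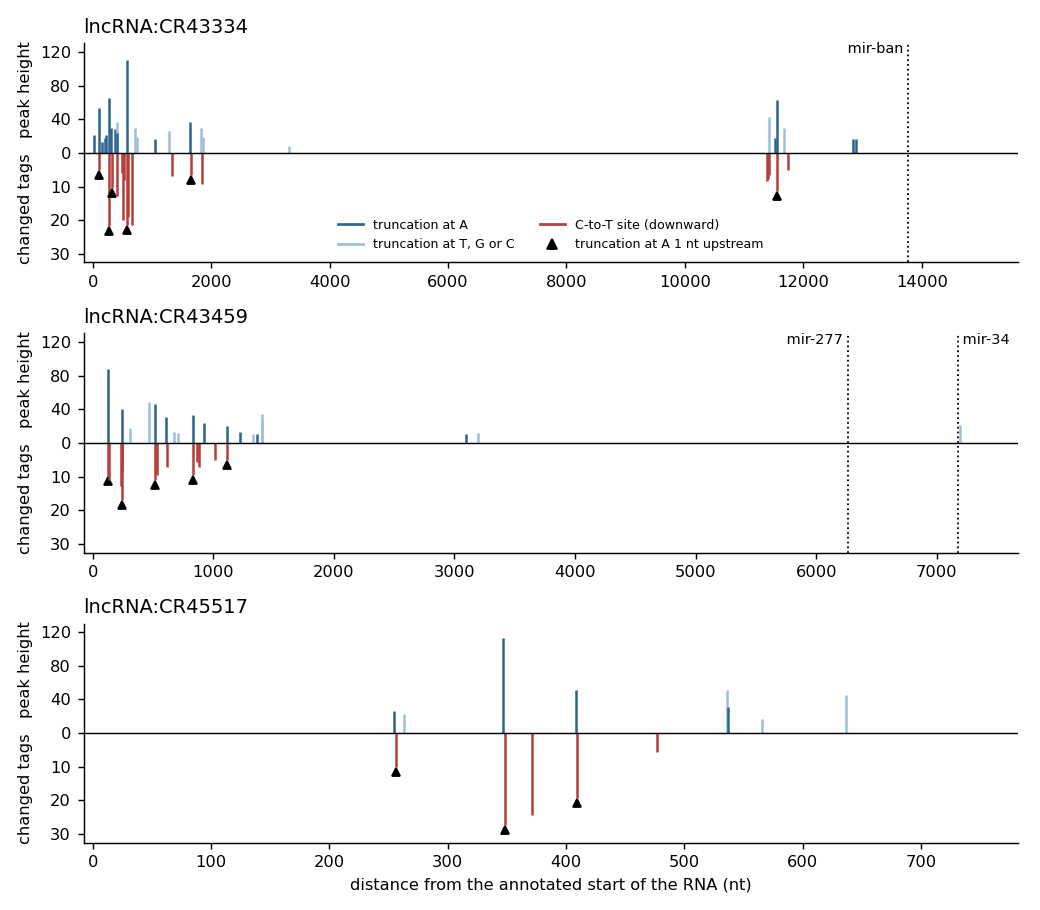
Sites along 3 lncRNAs by distance in nt from the annotated start. Upward lines give the peak height of truncations, downward lines the changed tags of C-to-T sites on a scale stretched 4 times, triangles mark paired C-to-T sites, and dotted lines the starts of microRNA hairpins. The sites of CR43334 and CR43459 crowd towards the start, and those of CR45517 lie in its middle.

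The lncRNA CR45054 (3R:10083381-10090525) ends 601 nt before the mir-317 hairpin (3R:10091126-10091217) on the same strand. Its 9 sites all lay within its first 1000 exonic nt, the nearest 7394 nt before the hairpin. All 7 of its truncations were at A, with peak heights from 15 to 22.5, and both of its C-to-T sites were paired, with conversions of 7.10% and 9.86%. No other RNA among the 15 with 5 or more sites had all its truncations at A.

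Among 262 annotated microRNA genes, 2 had a site that the authors named after the microRNA, and both sites were C-to-T. In mir-14, a microRNA known for suppressing cell death, 5.08 of 42.4 tags carried the change (11.9%, 2R:9553803-9553803, found in 3 IPs), and the hairpin lies in an exon of the lncRNA CR43651. The only site listed under CR43651 lay in the same hairpin, a truncation at G with a peak height of 29.7 on 9553801, before the C-to-T site. In mir-4943 it was 4 of 51.5 tags (7.89%, 2L:16528421-16528421, found in 2 IPs and by 1 aligner), in a hairpin that also lies in an exon of the protein-coding gene CG5953. Neither was paired. Hsromega, the heat-inducible lncRNA that organises nuclear omega speckles, holds mir-4951 near its 3' end, and its sites lay at least 18298 nt before that hairpin.

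The other lncRNAs with both a microRNA hairpin and a site had 1 or 2 sites each, all truncations, and not all of them near the start. CR31044, which contains mir-279 and mir-996, had a truncation at A and one at T, at 455 and 1044 of its 5106 nt. CR43857, which contains mir-275, had 1 at A, at 314 of 1305 nt. In CR46006, which contains mir-276a, the site was at A and lay at 6564 of 9895 nt, and in CR44206, which contains mir-184, it was at C and lay at 2218 of 2308 nt. The sites in CR44206 and CR46006 thus lay nearer the 3' end, unlike most sites of CR43334 and CR43459.

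Outside the microRNA hosts, the lncRNAs with the most sites per kb of exonic length were short. This density is taken over the whole RNA, so a long RNA with clustered sites ranks low. The first 1000 nt of CR43334 and CR43459 alone held 23 and 22 sites. CR45517 (X:5428483-5429256) held 13 sites in 774 nt, or 16.8 per kb, 5 of them C-to-T. Its C-to-T site at 5428830 had 27.3 changed tags of 487 (5.84%), and the truncation at A upstream had a peak height of 112.25. Both were found in 4 IPs and by 3 aligners. The next C-to-T site, at 5428853, had 24.25 changed tags of 676 (3.61%) with no truncation at A beside it. A further one, at 5428891, had 19.1 changed tags (6.06%) and a truncation peak of 50.7. The remaining pair, at 5428738, had 10.1 changed tags of 130 (8.09%) and a peak of 25.9. In all, 3 of the 5 C-to-T sites of CR45517 were paired, and 9 of its 13 sites were found in all 4 IPs.

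CR43264 (X:5831898-5832215, minus strand) had 7 sites in 318 nt, or 22.0 per kb. It had no pair, and its truncations were at T in 3 cases and at A in 1, although its C-to-T site at 5831927 had 19.8 changed tags of 387 (4.96%). CR42862 (3L:224106-230964) had 28 truncations and 4 C-to-T sites among 32. Truncations were 167 of the 219 sites in lncRNA exons and 856 of all 949 noncoding and unnamed sites. Its truncations were at T in 17 cases and at A in 8, with peak heights from 12 to 31.25, and 2 of its C-to-T sites were paired.

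The remaining lncRNAs with 5 or more sites had at most 1 C-to-T site each. C-to-T sites were 52 of the 219 sites in lncRNA exons and 93 of all 949 noncoding and unnamed sites. Hsromega (3R:21296127-21317836) held 10 sites, of which 1 was C-to-T, at 21298297 with a conversion of 11.2% of 55.6 tags, and it was paired. All 10 lay between 21296698 and 21298418, towards the start of an RNA of 21710 nt. CR44417 (2R:17869027-17869857) had 8 truncations, 4 at A and 4 at T, with a highest peak of 65.0 at A and no C-to-T site. CR46064 (2R:4782892-4785543) had 8 sites with 1 pair, CR43242 (2L:23069005-23070724) 5 sites with 1 pair, and CR43144 (2L:21657625-21658249) 5 truncations, of which 4 were at T. roX2, an RNA of the dosage compensation complex, had 2 truncations, at A (peak height 8.0) and at T (10.0), and no site was listed in roX1, the other RNA of that complex.

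**Figure D2:**
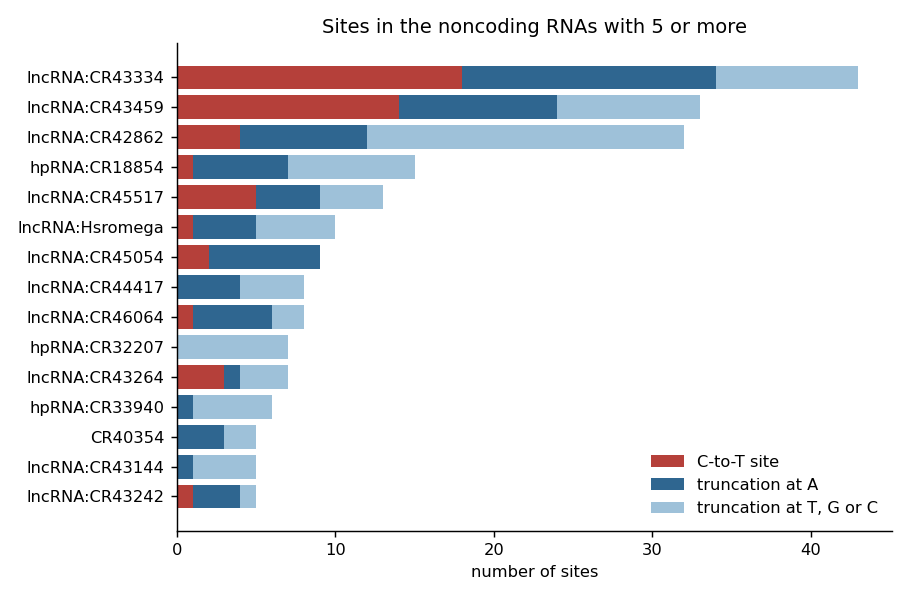
Number of sites in each of the 15 noncoding RNAs with 5 or more, as C-to-T sites, truncations at A and truncations at T, G or C. CR43334 and CR43459 hold 18 and 14 C-to-T sites, no other RNA holds more than 5, and all 7 truncations of CR45054 are at A.

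The sites were concentrated in few RNAs. The 3 lncRNAs CR43334, CR43459 and CR42862 held 107 of 219 sites in lncRNA exons, 15 of the 85 names had 5 or more sites, and 47 names had a single one. Pairs occurred in 10 names. RNA abundance was not measured by these lists, and its part in the counts per RNA was not tested.

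Sites in lncRNA exons lay more often near the start of the RNA than elsewhere. The first 20% of the exonic length held 104 of 219 (47.5%, 41.0% to 54.1%), and the other stretches of 20% between 8.68% and 16% each. For C-to-T sites alone the first stretch held 31 of 52 (59.6%), and for truncations 73 of 167 (43.7%). The share in that stretch was 41.5% without CR43334 and 33.9% without the 3 lncRNAs with the most sites. Positions were counted on the longest annotated transcript holding the site (21216 nt for Hsromega), and shares on shorter transcripts were not computed. On that count the median site lay in the first 50% of the RNA in 9 of the 11 lncRNAs with 5 or more exonic sites. It lay in the first 20% in 4, namely CR43334, CR43459, CR45054 and Hsromega. In CR44417 and CR46064 it lay at 0.247 and 0.291 of the length. It was near the middle in CR43144 (0.437), CR43264 (0.465) and CR42862 (0.479), and just past it in CR43242 (0.506) and CR45517 (0.527). Read coverage along these RNAs was not part of the site lists, so the part that coverage plays in this layout was not tested.

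Hairpin RNAs, which fold into long duplexes that Dicer-2 cuts into small interfering RNAs, had most of their truncations at bases other than A. Of 8 annotated hpRNAs, 4 had sites, which the authors had labelled as pseudogene, 30 of them truncations and 1 C-to-T. Among all 949 noncoding and unnamed sites 856 were truncations. Of the 30 truncations 7 were at A (23.3%, 11.8% to 40.9%), while 13 were at T, 6 at C and 4 at G, and none was paired. CR18854 (2L:9787294-9790745, minus strand) held 15 sites, among them the truncation with the greatest peak height of all 949, 130 at G (2L:9789248-9789248, found in 4 IPs and by 3 aligners), and another at G with 60.7. Its single C-to-T site had 5.75 changed tags of 110.5 (5.20%).

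The other 3 hpRNAs with sites lie near each other on the minus strand of 3L, and they had truncations only. CR32207 (3L:19477329-19478720) had 7, none of them at A. CR33940, which the authors named pncr009:3L (3L:19486745-19488439), had 6, of which 1 was at A, and CR32205 (3L:19420390-19424183) had 3, of which none was. The arms of such hairpins resemble each other, so the placement of their reads is uncertain. The pseudogene CR40354 (3L:25201942-25203341) had 5 truncations, 3 of them at A.

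Small and structural RNAs had few sites. Oligo(dT) selection leaves out most RNAs without a poly(A) tail, so a low count there does not show a lack of methylation. Of 295 annotated tRNA genes 13 had a site, and all 14 sites were truncations, 6 at G, 5 at T and 3 at A, with peak heights from 6.0 to 16.7. Several fell at like places in related genes. Counted from the gene's first base, 2 Ala-TGC genes had a truncation at A at position 36, Arg-ACG-1-7 and Phe-GAA-1-7 had one at G at position 37, and 3 Gly-GCC genes had one at T at position 52. tRNA genes occur in near-identical copies, so which copy gave the reads is uncertain.

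The spliceosomal U2 RNA at 34AB had 1 truncation, at T with a peak height of 21.3, and U2 too has several copies. The 3 sites in snoRNAs were all truncations at A given by 3 aligners. The highest, with 23.2, was in Or-aca2, which lies in an exon of the ribosomal protein gene RpS6. The site in the snoRNA CG43051-a likewise lies in an exon of the protein-coding gene CG43051. At both, reads of the snoRNA and of the mRNA cannot be told apart. Of 7 snoRNA host genes, Uhg1, Uhg2 and Uhg3 held 5 truncations, 2 of them at A. No site was listed in the 3 signal recognition particle RNA genes or in the RNase P and MRP RNAs. The 18 sites in rRNA names were all truncations, 11 of them at T (61.1%, 38.6% to 79.7%), and most lay on unplaced sequences, with no C-to-T site.

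The 644 unnamed sites, 38 C-to-T and 606 truncations, were placed on the current Ensembl annotation. Between annotated genes lay 338 (52.5%), on the opposite strand of an intron 184 (28.6%) and on the opposite strand of an exon 63 (9.78%). A further 3 lay in introns on the same strand, 21 on sequences without annotated genes and 13 in annotated transposable elements. Annotated exons on the same strand took up 22 sites, 12 in protein-coding genes and 10 in noncoding genes. The share of A at truncations was 56.1% (50.6% to 61.5%) between genes, 55.2% opposite introns and 62.9% opposite exons, and it was 33.3% (17.2% to 54.6%) on sequences without annotated genes.

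**Figure D3:**
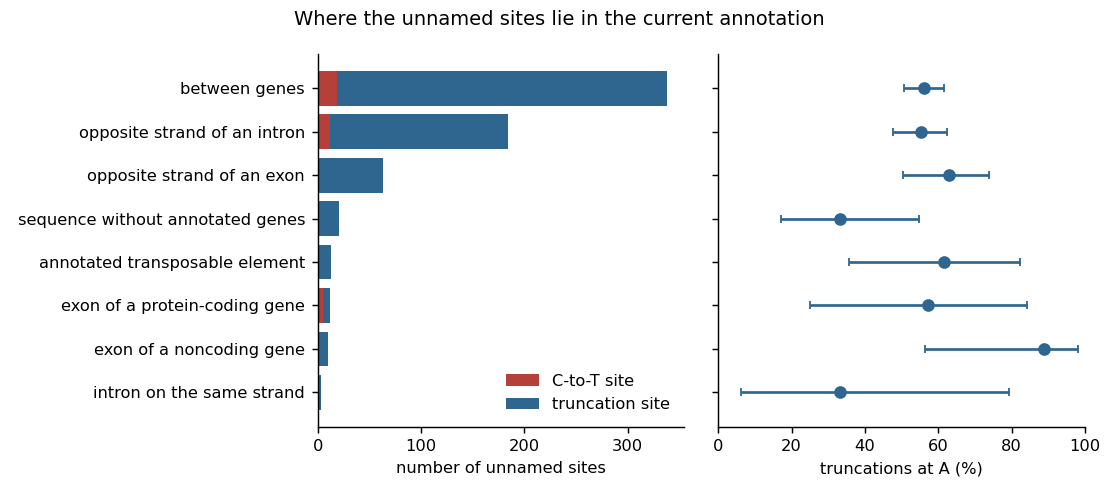
Left, number of unnamed sites by their place in the annotation, C-to-T sites and truncations stacked. Right, percentage of truncations at A in each place with Wilson 95% intervals. Sites between genes (338) and opposite introns (184) lead, with A at 56.1% and 55.2% of truncations.

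Of the 12 unnamed sites in protein-coding exons, 10 belonged to the current 5' UTR of ct (X:7608515-7609104), which encodes the homeodomain protein Cut. They were 5 C-to-T sites and 5 truncations with 2 pairs, and one pair, at 7608735, had 9.75 changed tags of 249 (4.08%) and a truncation peak of 51.4. The authors had labelled 9 more sites of ct as 5' UTR, from 7609207 to 7609376. The unnamed ct sites are thus mRNA sites in the current annotation.

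Between genes, the sites near a protein-coding gene on the same strand were more often 5' of it than 3' of it. Within 1000 nt lay 57 sites 5' and 27 sites 3' of the nearest gene, and a further 42 and 27 lay over 1000 and up to 5000 nt away. Most of the rest were remote, with 127 over 5000 nt 5' of the nearest gene and 58 over 5000 nt 3' of it. The share of A was 68.0% within 1000 nt 3' of a gene (48.4% to 82.8%) and 60.8% within 1000 nt 5' of one (47.1% to 73.0%). Over 5000 nt away it was 50.8% on the 5' side and 49.1% on the 3' side.

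When unnamed sites on 1 strand no more than 500 nt apart were joined, they formed 449 loci. A single site made up 367 of them, and 15 loci held 5 or more sites, 114 in all. Of the 38 unnamed C-to-T sites, 1 was single, 10 lay in loci of 2 to 4 sites and 27 in loci of 5 or more, where 13 were paired. Among single sites 51.1% of truncations were at A and 65.3% came from 1 aligner, with a median peak height of 8.92. In the loci of 5 or more sites 63.2% were at A and 26.4% came from 1 aligner, with a median of 18.

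The largest unnamed locus (2R:3563141-3564362, plus strand) held 15 sites, with the nearest protein-coding gene on its strand, RYa, 82984 nt away. Of its 11 truncations 9 were at A, and 3 of its 4 C-to-T sites were paired. The unpaired one, at 3564214, had 32 changed tags of 155 (19.5%), the most changed tags and the highest conversion among the 93 C-to-T sites. The paired ones had conversions of 19.0%, 7.21% and 9.05%, beside truncation peaks of 18.2, 27.0 and 31.8.

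The next locus (2R:4923731-4924145, minus strand), opposite an intron of the receptor gene Ir41a, held 11 sites. It had 6 C-to-T sites, 3 of them paired. Its pair at 4923801 had the highest truncation peak of any unnamed site, 125, but a conversion of only 1.57% of 726 tags. The pair at 4923824 had 20.1 changed tags of 349 (5.94%) and a peak of 94.75. A site that the authors assigned to a NINJA repeat lay within 500 nt of this locus.

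A locus of 7 sites opposite an exon of bisc (2R:21383195-21383515, plus strand) held the paired C-to-T site at 21383311, with 24.2 changed tags of 251 (9.99%). Its truncation peak of 35.0 came from 1 aligner, whereas 3 aligners gave the C-to-T site. Other loci with pairs were 9 sites at 2L:21928832-21929263 and 9 sites at 2R:4261283-4262583, and the locus at 2R lay within 500 nt of sites in a MICROPIA repeat. The pair of that locus, at 4262010, had 9.75 changed tags of 221 (4.42%) and a truncation peak of 24.6. Against these, 7 sites at 2R:6419901-6420592 were truncations only, 5 of them at T.

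How many aligners and IPs gave a truncation went with its base. Where all 3 aligners gave it, A made up 153 of 190 unnamed truncations (80.5%, 74.3% to 85.5%) and 80 of 130 in named RNAs (61.5%, 53.0% to 69.5%), against 60.1% in mRNA exons. Where 1 aligner gave it, A made up 42.7% at unnamed sites and 36.4% in named RNAs, against 42.5% in mRNA exons. Introns went the same way, with A at 278 of 1007 truncations given by 1 aligner and at 949 of 1844 over all. In 5' UTRs these counts were 818 of 1553 and 5623 of 7778. The share with all 3 aligners is not given here for introns or for single parts of mRNAs. With the number of IPs the share of A changed less at unnamed sites, from 53.6% in 2 IPs through 59.1% in 3 to 58.8% in 4. In mRNA exons it was 42.8%, 52.9% and 65.9% at the same numbers of IPs.

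**Figure D4:**
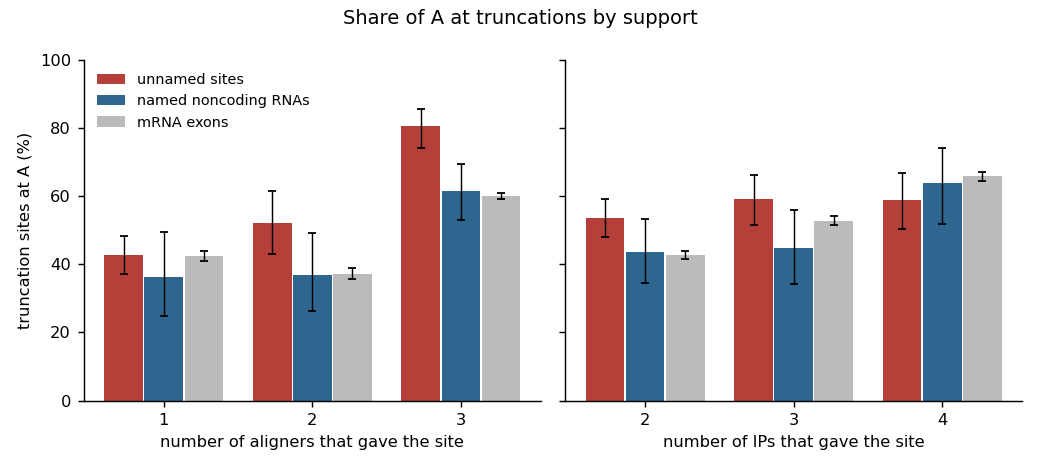
Percentage of truncations at A by the number of aligners (left) and IPs (right) that gave the site, with Wilson 95% intervals, for unnamed sites, named noncoding RNAs and mRNA exons. Unnamed truncations given by 3 aligners stand at 80.5%, above both other sets shown. Introns and single parts of mRNAs are not shown.

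Unnamed truncations more often rested on 1 aligner than those in named RNAs or mRNA exons, and so did truncations in introns. A single aligner gave 362 of the 856 noncoding and unnamed truncations (42.3%, 39.0% to 45.6%), beside 26% over the whole list, and the share was 50.7% at unnamed sites and 22.0% in named RNAs, against 22.4% in mRNA exons, 34.6% in repeats and 54.6% in introns. That aligner was Novoalign for 241 of the 362 (66.6%) and STAR for 13%, against 35.5% and 48.9% in mRNA exons and 75.7% and 10.0% in introns. All 4 IPs shared 205 of the 856 truncations (23.9%), beside 27.4% over the whole list, and 32 of the 93 C-to-T sites (34.4%), beside 34.6%.

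Truncations of the noncoding and unnamed sites had a median peak height of 11.4 (11 to 12), with 14.5 in named RNAs and 10.5 at unnamed sites, against 14.8 in mRNA exons. Truncations at A in a pair were higher, with a median of 29.25 (22.5 to 40.5), than truncations at A without one, with 10.5 (9.83 to 11.25). In mRNA exons the same medians were 36.3 and 14.1. Coverage at truncations was not listed, and its part in this difference was not tested.

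Of the 10 greatest truncation peaks, 7 were given by 2 or 3 aligners, and 6 of these were at A. They include, beside those already given, a truncation at A of 103 in an intron of the lncRNA CR44999 (X:3411378-3411378), found in 4 IPs, with Myc as the nearest protein-coding gene 19681 nt upstream. The other 3 of the 10 came from Novoalign alone and were not at A. They were a T of 105 (X:20132959-20132959), a T of 66.25 (3R:17620326-17620326) and a C of 67.5 on an unplaced sequence.

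The conversion at the 93 C-to-T sites had a median of 5.38% (4.77% to 6.05%), from 1.38% to 19.5%, against 3.35% in mRNA exons, 5.92% in introns and 6.0% in repeats. It exceeded 10% at 15 of 93 (16.1%, 10.0% to 24.9%), beside 7.95% over the whole list, and at 15.8% of C-to-T sites in introns and 13.3% in repeats. Coverage was lower at the same time, with a median of 157.5 unique tags, against 283 in mRNA exons, 124 in introns and 150 in repeats. When sites were divided at the quartiles of coverage in mRNA exons, the medians from low to high coverage were 7.91%, 4.29%, 2.90% and 2.03% at the noncoding and unnamed sites (38, 27, 22 and 6 sites). In mRNA exons they were 7.50%, 3.89%, 2.43% and 1.34%. The medians of the sets lay closer to each other within each coverage group than over all sites. No listed C-to-T site had fewer than 4 changed tags at the noncoding and unnamed sites, or fewer than 3.5 in mRNA exons. Low conversions at low coverage are therefore absent from the lists, so the fall with coverage is in part a property of the listing.

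**Figure D5:**
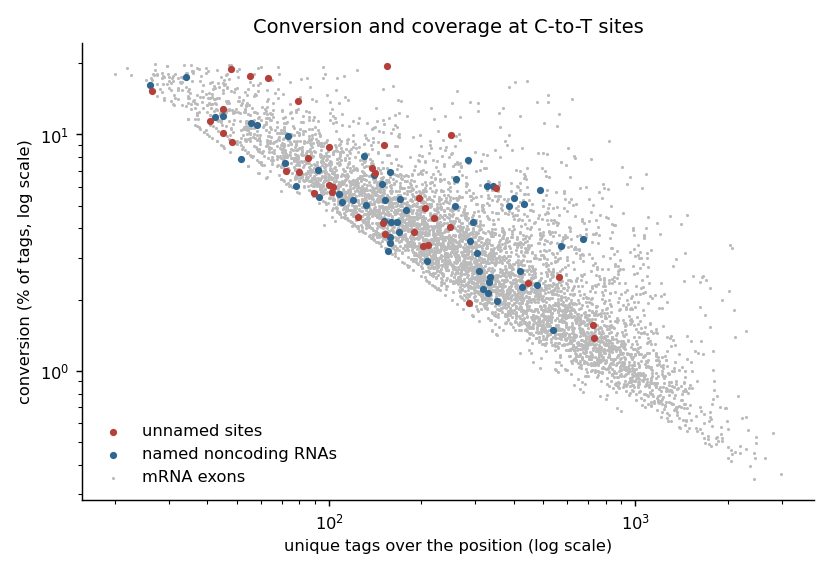
Conversion in percent of tags against the unique tags covering the site, both on log scales, for C-to-T sites at unnamed places, in named noncoding RNAs and in mRNA exons. Listed conversion falls with coverage in each set, where no site has fewer than 3.5 changed tags, so low conversions at low coverage are absent. The unnamed site with 19.5% of 155 tags stands apart from the other unnamed and named sites of like coverage.

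Pairing within the same coverage groups was 44.7%, 51.9%, 40.9% and 16.7% at the noncoding and unnamed sites, against 46.6%, 49.5%, 29.0% and 12.4% in mRNA exons. The interval at the noncoding and unnamed sites held the value of mRNA exons in each group. At the highest coverage that interval rested on 1 of 6 sites and ran from 3.0% to 56.4%, so it would hold most values. Coverage in that group reached 732 tags at these sites and 2990.5 in mRNA exons. Paired C-to-T sites had a median conversion of 5.96% (4.42% to 7.10%) and unpaired ones of 5.0% (4.25% to 5.65%), with overlapping intervals.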

How the data were processed

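The authors deposited 1 list of C-to-T sites and 1 of truncation sites. Per the column legend deposited with them, reads were aligned with Novoalign, STAR and BWA, sites were called with the CTK toolkit, and a site was listed when 2, 3 or 4 IPs shared it. The submitters' processing notes also name build dm6, cutadapt 1.8, Bowtie 1.1.2 and STAR 2.4.2a. The deposited values are k (a count of unique tags over the position), m (changed tags), the percent of m over k and the lowest false discovery rate, each a mean or minimum over IPs, and for truncations the peak height, a p-value and the base. No source used here says how peak heights were merged across IPs, or whether the controls served as a filter. The false discovery rate was 0 at all 93 C-to-T sites and ranked nothing.

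Here the mean over the aligners that gave a site was used, with the highest number of IPs over aligners. Sites were placed, 1-based, on same-strand genes of Ensembl release 115 (BDGP6.54, dm6 coordinates). Of 85 names 76 matched, and all 291 sites under them lay inside the matched gene. Wilson and order-statistic 95% intervals were computed with Python 3.11.15, numpy 2.4.6 and scipy 1.17.1, with functions tested on simulated data. No genome sequence was used, so motifs were not searched.

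Named are the RNAs with 5 or more sites, the 10 strongest sites of each list, the 15 strongest pairs and up to 5 RNAs of fixed classes with a site. Members and lists were chosen with earlier results of these data known. Individual sites beyond these, and the unnamed loci, were chosen after their values were seen.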

Additional observations from a re-analysis of the deposited data

How the results depend on the processing

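The 7 main values were recomputed under the alternatives, which gave 46 further values; 34 of these stayed within the 95% interval of the main value or, for the number of sites, within 1.5 times of 949, and 12 did not. Restricting to sites found in all 4 IPs left 237 sites, with A at 60.5% of truncations, 62.5% of C-to-T sites paired, a median peak height of 18 and 37.6% of sites in named RNAs. Restricting to sites given by all aligners left 357 sites, with A at 72.8%, a median peak height of 13.2, 42.0% of sites in named RNAs and 37.8% found in all 4 IPs. Without CR43334 the share in named RNAs was 28.9%. With truncations and C-to-T sites above the median score of their list, the median peak height was 21.0, by construction of that filter. The lower numbers of sites follow from the filters in the same way. So does the lower named share without CR43334, itself a named RNA of 43 sites. The cause of the other shifts was not tested. Leaving out unplaced sequences, an alternative chosen after seeing the data, left 910 sites and kept the other 6 values within their intervals. No paired analysis was possible because only values combined over IPs were used, and for the same reason no replicate could be left out. Depth is known only at C-to-T sites, whose coverage ran from 26 to 732 tags.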

Other observations

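Some unnamed loci adjoined named transcripts. A locus of 6 sites (X:5429307-5429482, plus strand) lay just beyond the annotated end of CR45517 and 89 nt before CG15784, whose 5' UTR the authors gave sites within 500 nt. It held 1 C-to-T site, which was paired and had a conversion of 3.8%, and 5 truncations, 3 at T and 2 at A. A locus of 6 truncations (2L:21657278-21657482, plus strand) lay before the annotated start of CR43144, 3 of them at A and 3 at T. On 3R, 4 sites (23983334-23983447, plus strand) lay 102 nt beyond the 3' end of CG31140, with 3 truncations at A and 1 paired C-to-T site of 5.69% conversion. The lncRNA CR31451 (3R:23983503-23985065, plus strand), with 3 truncations, all at A, starts just beyond the other end of this locus. To which transcript these sites belong was not tested.

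By chromosome, 217 of the 949 sites lay on 2R, 195 on 3L, 169 on 2L, 162 on 3R and 151 on X. Chromosome 4 held 9, Y held 7, and 24 other sequences held 39 between them. C-to-T sites were listed on X (17), 2L (7), 2R (22), 3L (28) and 3R (19) only. The numbers are not corrected for chromosome length or gene content.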
